A study of Mus musculus with 2 samples.

Results

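Non-classical monocytes are blood monocytes that crawl along vessel walls and survey the endothelium. In the mouse they arise largely from classical monocytes, lose the surface marker Ly6C, and depend on the nuclear receptor Nr4a1. Ace, which encodes angiotensin-converting enzyme, and Treml4, which encodes a receptor of the TREM family, mark them among mouse monocytes. The cells described here were chosen from 2 tumour libraries by these transcripts. A chosen cell held at least 2 UMIs (unique molecular identifiers, each counting 1 captured transcript molecule) of Ace and Treml4 together and at least 1 of Csf1r or Lyz2. It also had to carry C1qa, C1qb and C1qc below 0.15% of its UMIs, with no UMI of Cd3d, Cd3e, Cd3g, Cxcr2 or Retnlg. The rule chose 345 of 20602 kept cells, 181 of 11617 in the library titled Blood and 164 of 8985 in the library titled Control, and these are called Ace/Treml4 cells.

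Both libraries came from subcutaneous fibrosarcomas, implanted syngeneic connective tissue tumours, in wild-type C57BL/6 mice, and cells freed with collagenase B and DNase I went through erythrocyte lysis and then 10x Genomics 3' v3 library preparation. The labels describe tumours given erythrocytes and tumours given PBS, a buffered saline. The labels contradict each other: the library titled Blood carries the treatment PBS injected, and the library titled Control carries the treatment Erythrocyte injected. Libraries are therefore named by title, and no direction below says what erythrocytes did. The sources used here do not give age, the number of animals behind each library, the fibrosarcoma line or any cell sort. With 1 library per group there was no test and no replicate check, and the intervals in brackets are exact 95% intervals that cover counting error only.

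The library titled Blood held 12057 barcodes and 115066023 UMIs, with a median of 6690 UMIs per kept cell. In the library titled Control there were 9475 barcodes with 115272096 UMIs, and the median was 9385. The libraries shared 349 cell barcodes. Among the chosen cells, 12 of the library titled Blood and 16 of the library titled Control had a barcode that also occurred in the other library, and 0 barcodes were chosen in both.

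The marker check set apart a small set of chosen cells that went against the label. The larger set fitted the label only in part, as described below. In 12 cells of the library titled Blood and 22 of the library titled Control, 10 mesenchymal genes, among them the collagens Col1a1, Col1a2 and Col3a1, held at least 0.2% of the cell's UMIs. No cell lay near this limit, since the nearest values were 0.0887% and 0.337% in the library titled Blood and 0.0692% and 0.299% in the library titled Control. These cells were very deep, with medians of 55185 UMIs titled Blood and 42798 titled Control, and 11 of 12 and 16 of 22 had a barcode found in both libraries. Nearly all were chosen through Ace alone, 12 of 12 and 20 of 22. Ear2 and Adgre4, which mark non-classical monocytes, had a UMI in 0 of 12 and 0 of 22 of them, which, counted as 3 cells of the total, allows shares of cells with a UMI of up to 25% and 13.6%. The pan-leukocyte gene Ptprc was seen in 8 of 12 and in 3 of 22. Not every marker was missing, since Plac8 had a UMI in 11 of 12 and 20 of 22. Lyz2, which the rule accepts, had one in 12 of 12 and 21 of 22, and Csf1r in 4 of 12 and 5 of 22. The collagen, Ear2 and Adgre4 values go against the monocyte label for these cells. They are called cells with mesenchymal transcripts and given no other name.

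**Figure D1:**
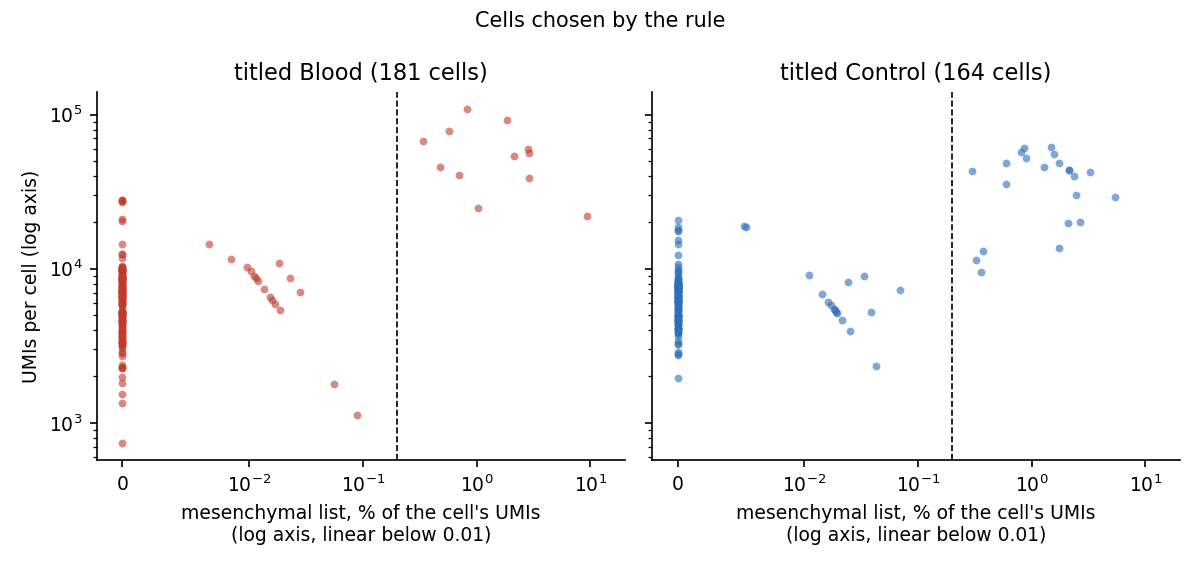
Each point is 1 cell chosen by the rule, with the share of its UMIs in 10 mesenchymal genes on the x axis (percent) and its total UMIs on the y axis, for 181 cells titled Blood and 164 titled Control. The dashed line marks 0.2%, and the 12 and 22 cells to its right lie apart from the others and are mostly deeper.

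Despite their small number, the cells with mesenchymal transcripts held 36.5% of the summed UMIs of the chosen cells titled Blood and 45.8% of those titled Control. With them included, 190 of 3114 genes (6.1%) were at least 2-fold higher and 99 (3.18%) at least 2-fold lower than in classical monocytes in both libraries, and the 12 genes highest against those monocytes were led by the matrix genes Col3a1, Col1a1, Col1a2 and Sparc, and 0 of these 12 were among the 12 found without them. The remaining 169 cells titled Blood and 142 titled Control, the core cells, are therefore described below. They summed to 1197952 and 976984 UMIs, with medians of 6583 UMIs per cell titled Blood and 6422 titled Control. This division was made after the data were seen, and values over all chosen cells are given beside the results that differ.

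In the core cells, Plac8, a marker not used by the rule, had a UMI in 154 of 169 cells titled Blood and 137 of 142 titled Control. It is no proof of identity, since 52.7% and 53.3% of T cells had one too. So did 11 of 12 and 20 of 22 cells with mesenchymal transcripts. Ptprc was seen in 165 of 169 and 137 of 142 core cells. Ear2, an eosinophil-associated ribonuclease that marks mouse non-classical monocytes, was seen in 43.8% (36.2 to 51.6) of cells titled Blood and 50% (41.5 to 58.5) of cells titled Control. In T cells, which should lack Ear2, the shares were 0.197% and 1.05%, at median depths of 5079 and 5325 UMIs. The 10 mesenchymal genes summed to 16.7 UMIs per 1000000 UMIs (CPM) in core cells titled Blood and 25.6 CPM in core cells titled Control, and the 9 T cell genes to 31.7 and 29.7 CPM. Another 9 core cells titled Blood and 3 titled Control carried at least 1% of their UMIs in 12 neutrophil genes. At least 1 UMI of Flt3, Xcr1, Clec9a, Cd209a or Zbtb46, which mark dendritic cells, was present in 12 core cells titled Blood and 3 titled Control. Scrublet, a doublet caller, marked 1 and 2 of the core cells, and they were kept.

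Ace and Treml4, whose values chose the cells, were found together in 87 core cells titled Blood and 78 titled Control. Ace alone was found in 50 and 32, and Treml4 alone in 32 and 32. Ace summed to 395 CPM (360 to 432) titled Blood and 410 CPM (371 to 453) titled Control, and Treml4 to 206 CPM (181 to 234) and 247 CPM (217 to 280). Detection was thin: 59 core cells titled Blood and 51 titled Control had exactly 2 of these UMIs, the least the rule allows, and 13 and 15 had 10 or more. Ace lies on chromosome 11 at 105967945 to 105989964 on the plus strand of GRCm38, and Treml4 on chromosome 17 at 48264295 to 48275360 on the plus strand.

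Other genes of the non-classical programme followed the number of Ace and Treml4 UMIs. A list of 26 such genes holds neither Ace nor Treml4. Outside the rule, it summed to 3248 CPM titled Blood and 3301 CPM titled Control in cells with 0 of these UMIs, and to 5172 and 4745 CPM in cells with 1. Chosen cells with 2 of these UMIs summed to 5380 CPM titled Blood and 6795 CPM titled Control, and cells with 3 to 9 to 10238 and 11683 CPM. Cells with 10 or more summed to 17552 and 19110 CPM. The chosen cells with 2 UMIs titled Blood thus lay close to the cells just outside the threshold. Depth did not follow this order in the chosen cells, whose median UMIs were 7142 titled Blood and 6518 titled Control with 2 and 5773 and 6196 with 10 or more.

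**Figure D2:**
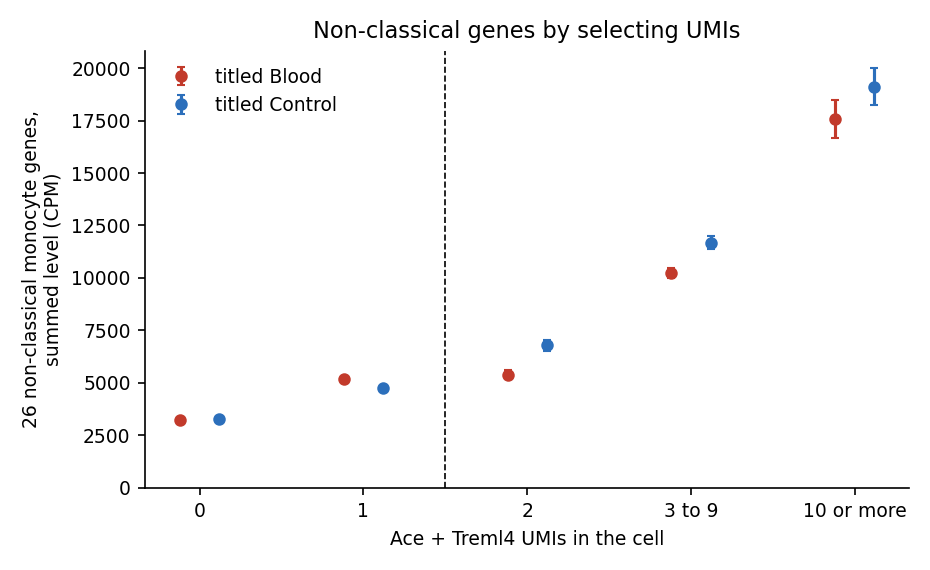
The summed level of 26 non-classical monocyte genes (CPM, y axis, from 0) is shown by the number of Ace and Treml4 UMIs in the cell (x axis) for cells without mesenchymal transcripts titled Blood and titled Control, with exact 95% counting intervals. Cells right of the dashed line met the rule, and the level runs from 5380 and 6795 CPM at 2 UMIs to 17552 and 19110 CPM at 10 or more.

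The cells chosen through Treml4 alone differed from the others within each library. Their non-classical list summed to 4733 CPM titled Blood and 6409 CPM titled Control, against 11328 and 12606 CPM in cells with both transcripts and 8115 and 10878 CPM in cells with Ace alone. Classical Ly6c2 cells, described below, had 4655 CPM of the list titled Blood and 5044 CPM titled Control. Titled Blood, the Treml4-only cells thus lay close to classical cells. The 9 MHC class II genes, which present antigen to CD4 T cells, summed in Treml4-only cells to 11406 CPM titled Blood and 24188 CPM titled Control, against 6276 and 12048 CPM in cells with both. The 20 macrophage genes summed to 9786 and 7490 CPM, against 4534 and 4430 CPM in cells with both and 7827 and 7042 CPM in classical cells. Treml4 alone also dominated the cells left out for their C1q transcripts, which encode the complement C1q chains abundant in macrophages. Of 99 such cells titled Blood and 303 titled Control with at least 2 Ace or Treml4 UMIs, 86 and 283 had Treml4 only.

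Ly6c2, which encodes the Ly6C antigen of classical monocytes, was not absent from the core cells. It had a UMI in 88 of 169 cells titled Blood (52.1%) and 89 of 142 titled Control (62.7%). T cells, some of which express Ly6c2 in mice, had one in 54.2% and 57.9%, so this share alone does not set the core cells apart. Core cells with Ly6c2 carried less of the non-classical list, at 7703 CPM titled Blood and 9821 CPM titled Control, than core cells without it, at 10444 and 11903 CPM. Their 35 interferon-stimulated genes, the antiviral programme switched on by interferons, stood at 13234 and 15975 CPM, against 7037 and 9443 CPM without Ly6c2. Cells with Ly6c2 were deeper, with medians of 7482 and 6732 UMIs against 4562 and 5131, and the part of depth in these differences was not tested.

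The core cells made up a small share of each library. All chosen cells were 1.56% (1.34 to 1.80) of kept cells titled Blood and 1.83% (1.56 to 2.12) titled Control, a ratio of 0.854 (0.687 to 1.06). Without the cells with mesenchymal transcripts the shares were 1.45% and 1.58%, a ratio of 0.921 (0.732 to 1.16). Among cells with Csf1r or Lyz2 and no Cxcr2 or Retnlg, chosen cells were 2.02% titled Blood and 2.05% titled Control, a ratio of 0.988 (0.795 to 1.23). With the C1q limit raised to 0.5% the shares were 1.63% titled Blood and 2.07% titled Control, and that ratio of 0.786 (0.638 to 0.967) had an interval below 1. At the other limits in this paragraph a difference was not detectable at this number of cells.

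The core cells were set beside the most similar cells of the same tumours, 396 classical Ly6c2 cells titled Blood and 494 titled Control. Genes were compared where either class reached 50 CPM and both together 30 UMIs. Of 2898 such genes, 42 (1.45%) were at least 2-fold higher in core cells in both libraries and 32 (1.1%) at least 2-fold lower. Because both classes were drawn by transcripts of the same cells, these are descriptions without a test. The non-classical list stood out: 17 of 23 genes titled Blood and 17 of 22 titled Control were at least 2-fold higher, against 1.93% and 2.3% of all genes tested. The list's median log2 ratio was 1.54 titled Blood and 1.71 titled Control, against 0.00 for all genes.

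After Ace and Treml4, Ear2 led the genes named against classical cells, at 159 CPM in core cells and 19.1 CPM in classical cells titled Blood, and at 277 and 16.4 CPM titled Control. Adgre4, an adhesion G protein-coupled receptor of the F4/80 family, stood at 106 CPM in core cells against 15.8 CPM in classical cells titled Blood, and at 161 against 12.2 CPM titled Control. Spn, which encodes the sialoglycoprotein CD43, followed with 171 against 24.1 CPM and 198 against 16.1 CPM. These genes define the non-classical state in mouse blood, and all 3 were higher in core cells of both libraries. Itgal, the alpha chain of the integrin LFA-1, through which these cells hold to endothelium, stood at 454 against 142 CPM titled Blood and 582 against 121 CPM titled Control. Gngt2, a G protein gamma subunit, was at 882 against 276 CPM and 1059 against 256 CPM. Ceacam1, an adhesion molecule, was at 131 against 28.4 CPM and 119 against 19.4 CPM.

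The transcription factor genes of the list also leaned to the core cells. Nr4a1, on which non-classical monocytes depend, had 603 CPM in core cells against 246 CPM in classical cells titled Blood, and 782 against 320 CPM titled Control, a ratio of 2.45 and 2.44. Klf2 had 1469 against 774 CPM and 1943 against 779 CPM. Cebpb, which acts upstream of Nr4a1 in mouse monocytes, differed little, at 2554 against 2257 CPM and 2950 against 2507 CPM. Further members were named after their values were seen. Cx3cr1, the fractalkine receptor, had 126 against 44.2 CPM and 187 against 70.5 CPM. Pou2f2, a transcription factor, had 463 against 156 CPM and 548 against 153 CPM. Cd300e, an activating receptor, had 84 of 1197952 UMIs in core cells against 3 of 3029182 in classical cells titled Blood. Titled Control it had 54 of 976984 against 29 of 3600529 UMIs. S1pr5, a sphingosine phosphate receptor needed for these cells to leave the bone marrow, had 14 and 11 UMIs in core cells and 0 and 0 in classical cells.

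**Figure D3:**
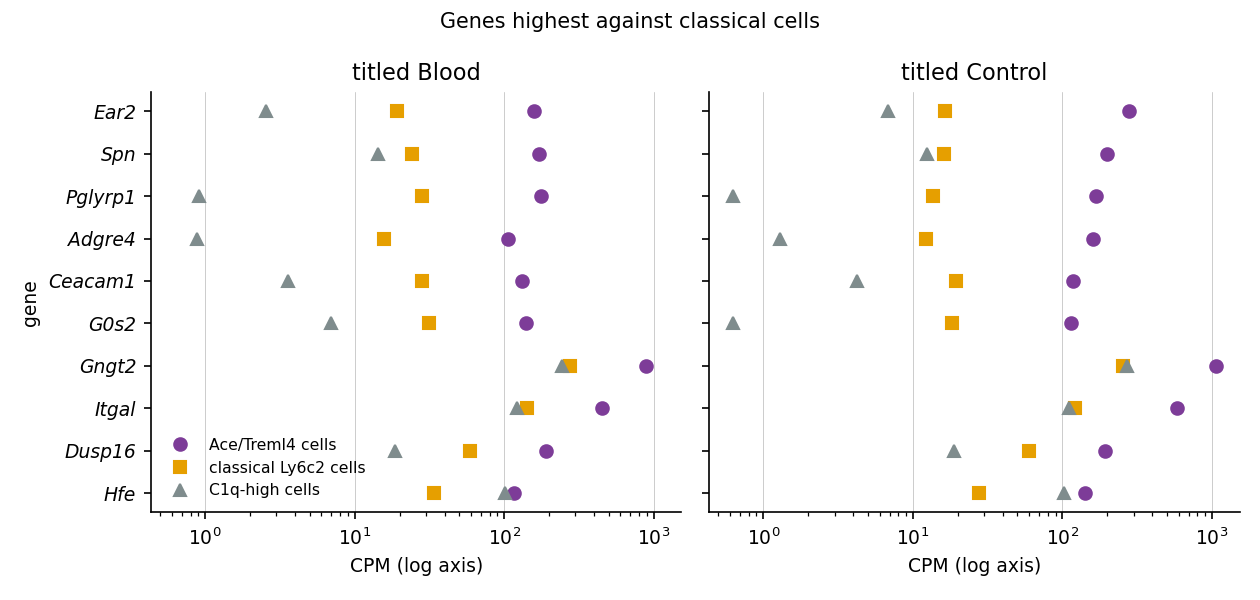
Levels (CPM, log axis) of the 10 genes outside the rule that were highest against classical cells, in Ace/Treml4 core cells, classical Ly6c2 cells and C1q-high cells, titled Blood on the left and titled Control on the right. Core cells lie to the right of classical cells for all 10 genes, while Hfe in C1q-high cells, at 101 and 103 CPM, comes near the core level of 117 and 142 CPM.

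Several of the highest genes are also expressed by neutrophils, and these were read without the neutrophil-transcript cells as well. Pglyrp1, a peptidoglycan recognition protein, had 178 CPM in core cells against 28.4 CPM in classical cells titled Blood and 168 against 13.6 CPM titled Control. Without the 9 and 3 neutrophil-transcript cells it stayed at 176 CPM titled Blood and 171 CPM titled Control. G0s2, an inhibitor of the triglyceride lipase ATGL, had 141 against 31.4 CPM and 114 against 18.3 CPM, and without those cells 85.2 CPM titled Blood and 115 CPM titled Control. Dusp16, a phosphatase of JNK and p38 kinases, had 192 against 59.4 CPM and 192 against 59.7 CPM. Hfe, an MHC class I-like protein that controls iron uptake, had 117 against 34 CPM and 142 against 27.8 CPM.

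The 8 lowest genes against classical cells named by the rule included Ccl2 and Ccl7, chemokines that recruit monocytes. Ccl2 stood at 260 CPM in core cells against 887 CPM in classical cells titled Blood, and at 351 against 1110 CPM titled Control. Ccl7 stood at 38.4 against 149 CPM and 30.7 against 232 CPM. F13a1, a coagulation factor subunit made by classical monocytes, had 88.5 against 273 CPM and 56.3 against 175 CPM. Dab2, an endocytic adaptor, had 91.8 against 351 CPM and 97.2 against 320 CPM, and the mannose receptor gene Mrc1 43.4 against 126 CPM and 31.7 against 104 CPM. C3ar1, the receptor for the complement fragment C3a, and Dmkn, which encodes dermokine, were lower by similar factors, 0.357 and 0.336 for C3ar1 and 0.361 and 0.272 for Dmkn. Ly6c2 itself was lower, but the rule for classical cells required it. The list of 19 classical monocyte genes, which holds Ly6c2, was lower but far from absent. It summed to 6957 CPM in core cells against 10713 CPM in classical cells titled Blood, and 6660 against 10158 CPM titled Control. Titled Blood, 2 of its 16 genes tested were at least 2-fold lower, against 1.48% of all genes tested.

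Functional lists added to this picture. Of 17 adhesion and crawling genes tested, 4 titled Blood and 4 titled Control had at least 2-fold more in core than in classical cells. Of all genes tested, 1.93% and 2.3% did so. The list's median log2 ratios were 0.33 and 0.38. Of 17 inflammatory cytokine genes, 3 and 5 were at least 2-fold lower, against 1.48% and 2.04% of all genes, with medians of -0.50 and -0.76. The interferon-stimulated list had medians of -0.47 and -0.52, with 0 of 29 and 5 of 33 genes at least 2-fold lower. Fc receptor signalling, with medians of 0.01 and -0.02, lysosome genes, with 0.01 and -0.11, and survival and apoptosis genes, with 0.15 and 0.03, lay near the median of all genes. Against C1q-high cells the contrast was broader, with 278 of 3254 genes (8.54%) at least 2-fold higher and 213 (6.55%) lower in core cells of both libraries. There, Cx3cr1 was lower in core cells, at 126 against 307 CPM titled Blood and 187 against 358 CPM titled Control.

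Between the libraries, core cells titled Blood carried less MHC class II and interferon-stimulated transcript than core cells titled Control. The genes highest titled Blood were single members of several lists, and for many of them 1 cell held a large share of the UMIs. Of 3097 genes tested, 20 (0.646%) were at least 2-fold higher and 17 (0.549%) at least 2-fold lower titled Blood, on the scale of log2(CPM + 10). Without the neutrophil-transcript cells the counts were 11 (0.358%) and 16 (0.521%) of 3069. Over all chosen cells they were 19 (0.587%) and 17 (0.525%) of 3239, and 7 of the 12 highest and 4 of the 11 lowest named genes were shared with the core. The median log2 ratio over all genes tested was -0.01.

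The MHC class II list was the furthest from 0. Of its 7 genes tested, 0 were at least 2-fold higher and 3 at least 2-fold lower titled Blood, with a median log2 ratio of -0.97. Without the neutrophil-transcript cells 1 of 7 was at least 2-fold lower, with a median of -0.93, and over all chosen cells 0 of 6, with a median of -0.77. The 9 genes summed to 7341 CPM titled Blood and 14565 CPM titled Control, a ratio of 0.504 (0.491 to 0.518). H2-Ab1, the beta chain of I-A, had 1294 UMIs in 96 of 169 cells titled Blood and 2339 UMIs in 108 of 142 cells titled Control. Its level was 1080 CPM (1022 to 1141) titled Blood, against 2394 CPM (2298 to 2493) titled Control. H2-Aa, its alpha chain, had 995 CPM titled Blood and 2030 CPM titled Control. H2-Eb1, of I-E, had 821 and 1617 CPM, and Cd74, the invariant chain that guides class II molecules to the endosome, had 3828 and 7733 CPM. The ratios of these 4 genes ran from 0.451 to 0.507. T cells, which in mice should lack class II, had an H2-Ab1 UMI in 31.7% of cells titled Blood and 43.4% of cells titled Control, at median depths of 5079 and 5325 UMIs, against 56.8% and 76.1% of core cells. The class II list in T cells summed to 1220 CPM titled Blood and 1850 CPM titled Control, so its background was also lower titled Blood, and the part of free RNA in the difference was not tested. The summed lists of some other class II-bearing cells were also lower titled Blood, but not every marker was. The 20 macrophage genes were higher titled Blood, at 6238 CPM against 5350 CPM titled Control. A UMI of Flt3, Xcr1, Clec9a, Cd209a or Zbtb46 was seen in 12 of 169 core cells titled Blood and 3 of 142 titled Control. The 16 dendritic cell genes, of which the class II list holds H2-DMb2, summed to 4526 CPM titled Blood and 6112 CPM titled Control, most of it Cst3 at 3970 and 5482 CPM. The 7 plasmacytoid dendritic cell genes summed to 259 and 530 CPM, most of it the interferon-stimulated Bst2, and the 8 B cell genes to 61.8 and 114 CPM. Of the defining plasmacytoid genes, Siglech and Ccr9 had 0 and 0 UMIs titled Blood and 15 and 30 UMIs titled Control, all of either gene in 1 cell. The part of such cells in the class II difference was not tested. Single cells held up to 22% of a class II gene's UMIs, the most for H2-Eb1 titled Blood.

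Most core cells carried little class II and a minority carried much. The quartiles over cells were 607 and 5526 CPM of the list titled Blood, with a median of 1521, and 1221 and 17637 CPM titled Control, with a median of 4501. The lower level titled Blood was seen in cells with Ace alone, at 5715 against 7844 CPM titled Control. It was seen in Treml4-only cells, at 11406 against 24188 CPM, and in cells with both, at 6276 against 12048 CPM. In cells with 10 or more Ace and Treml4 UMIs the order was the opposite, 7576 CPM in 13 cells titled Blood and 3704 CPM in 15 cells titled Control. Over all chosen cells the ratio was 0.585 (0.570 to 0.601). Classical cells showed a like difference, 9153 against 18618 CPM, a ratio of 0.492, and C1q-high cells a smaller one, 15137 against 20153 CPM, a ratio of 0.751. Whether the ratios of these classes differ was not tested.

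**Figure D4:**
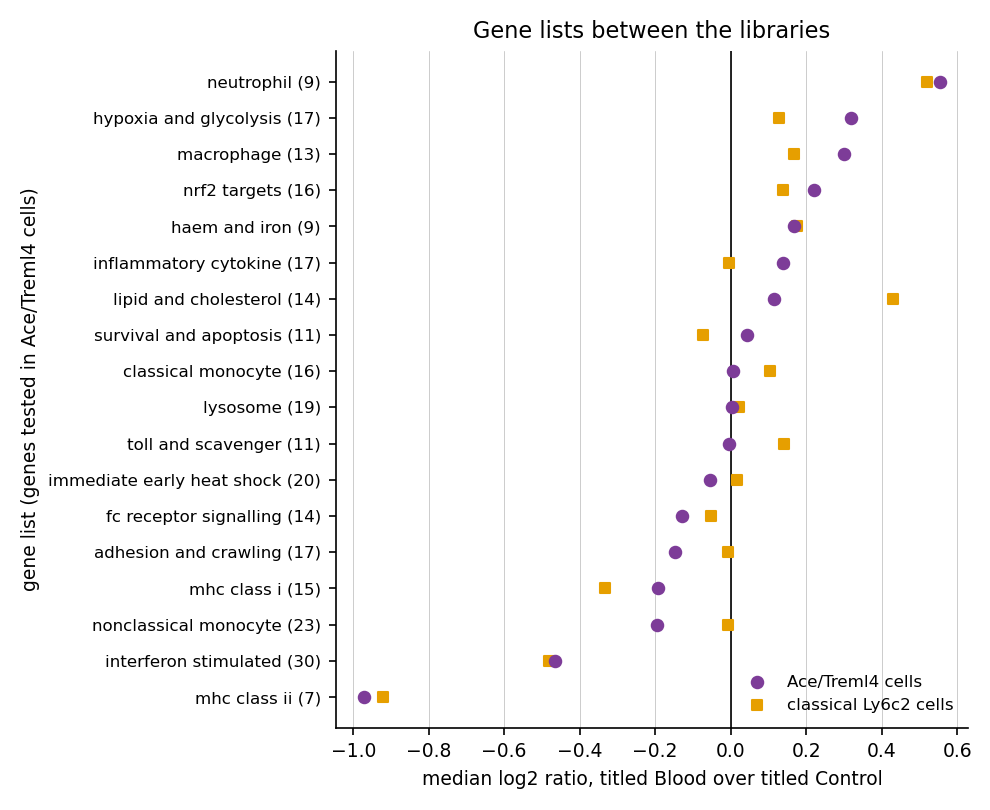
Median log2 ratio, titled Blood over titled Control, of each gene list with at least 5 genes tested (number in brackets), in Ace/Treml4 core cells and in classical Ly6c2 cells. MHC class II genes lie lowest at -0.97 in core cells, interferon-stimulated genes at -0.47, and neutrophil genes highest at 0.55.

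Interferon-stimulated genes were lower titled Blood in most of the list. Of the 30 tested, 3 passed the 2-fold limit, each of them lower titled Blood, and the list's median log2 ratio was -0.47. The 35 genes summed to 10744 CPM titled Blood and 13733 CPM titled Control, a ratio of 0.782 (0.764 to 0.802). Over all chosen cells that ratio was 0.821 (0.803 to 0.839). Irf7, the transcription factor that amplifies interferon production, had 212 UMIs in 88 of 169 cells titled Blood and 400 UMIs in 110 of 142 cells titled Control. This came to 177 CPM (154 to 202) titled Blood, against 409 CPM (370 to 452) titled Control. T cells had an Irf7 UMI in 25.3% of cells titled Blood and 41.4% of cells titled Control. No single cell held more than 6.6% of these UMIs. Irf7 lies on chromosome 7 at 141262706 to 141266481 on the minus strand of GRCm38. Ifit3, an antiviral protein that helps block viral RNA, had 45.1 CPM (33.9 to 58.8) titled Blood and 159 CPM (135 to 186) titled Control, in 18 and 41 cells. Isg20, an antiviral exonuclease, had 48.4 CPM titled Blood and 114 CPM titled Control. Isg15, a ubiquitin-like modifier, had 396 and 550 CPM, with 17.1% of its UMIs titled Blood in 1 cell. The strongest members by level, Ifitm3 at 4303 and 4732 CPM and Ifi27l2a at 1984 and 2649 CPM, differed by less.

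Many of these genes carry the paired GAAA letters that interferon regulatory factors bind. The motif GAAANNGAAA, read on both strands as GAAANNGAAA or TTTCNNTTTC with overlapping matches allowed, was searched in RefSeq promoters of GRCm38.p6, from 250 bases before to 50 bases after each start site. Of the listed interferon-stimulated genes, 27 had a promoter in the table, and 17 of their 29 promoters (58.6%) held the motif, against 1131 of 32851 promoters of all genes (3.44%). Irf7 held none in this window. The 4 genes with a match before the start site and most UMIs in core cells are shown, 100 bases each, 5′ to 3′ on the gene's strand, with matches in capitals.
Isg15, minus strand, chr4:156200836-156200935: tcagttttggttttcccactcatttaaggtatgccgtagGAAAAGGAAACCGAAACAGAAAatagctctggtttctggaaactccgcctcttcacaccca
Slfn5, plus strand, chr11:82951902-82952001: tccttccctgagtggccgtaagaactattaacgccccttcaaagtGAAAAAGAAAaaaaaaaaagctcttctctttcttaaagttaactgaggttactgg
Bst2, minus strand, chr8:71537545-71537644: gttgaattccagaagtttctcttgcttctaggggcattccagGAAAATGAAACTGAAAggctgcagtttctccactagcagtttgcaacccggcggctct
Trim30a, minus strand, chr7:104465194-104465293: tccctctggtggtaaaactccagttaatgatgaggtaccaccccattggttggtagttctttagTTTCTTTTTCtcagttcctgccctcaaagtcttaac
Isg15 carried 3 overlapping matches, and Bst2, which encodes the virus-tethering protein tetherin, carried 2. Bst2 had 195 CPM titled Blood and 368 CPM titled Control. Slfn5, of the Schlafen family, had 303 and 367 CPM, and Trim30a, a tripartite motif protein, 195 and 225 CPM, so genes with a match differed from each other in their ratios. A match is a description of letters and not of a bound site.

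The lower interferon-stimulated level titled Blood held when the core cells were divided by Ace and Treml4 and by Ly6c2. It was 11123 against 14967 CPM titled Control in cells with Ace alone, 8909 against 9739 CPM in Treml4-only cells and 11448 against 15385 CPM in cells with both. In cells with Ly6c2 it was 13234 against 15975 CPM, and in cells without it 7037 against 9443 CPM. In the few neutrophil-transcript cells the order was the opposite, 6013 CPM in 9 cells titled Blood and 3945 CPM in 3 cells titled Control. Classical cells had 13708 CPM titled Blood and 18047 CPM titled Control, a ratio of 0.760, and C1q-high cells 3532 and 6093 CPM, a ratio of 0.580. Irf7 in those classes had 293 against 590 CPM and 106 against 246 CPM, so both values were lower titled Blood in each of the 3 classes, and the size of the difference was not compared by a test. T cells too had less of the list titled Blood, 3678 CPM against 5436 CPM titled Control, and the part of free RNA in the core difference was not tested.

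Other genes at the low end titled Blood included further Ly6 and membrane genes. Ly6a, which encodes the interferon-responsive surface protein Sca-1, had 232 CPM titled Blood and 568 CPM titled Control, and Ly6i, a related gene, 187 and 428 CPM. Because these near-identical family members can share reads, their single values are uncertain. Tmem176a and Tmem176b, neighbouring genes of intracellular channel proteins, had 42.6 and 61.8 CPM titled Blood and 116 and 154 CPM titled Control. Phf11b had 61.8 against 153 CPM. Pltp, the phospholipid transfer protein, had 40.9 against 110 CPM, and Ckb, brain-type creatine kinase, 40.9 against 109 CPM, with 34% of its UMIs titled Control in 1 cell.

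**Figure D5:**
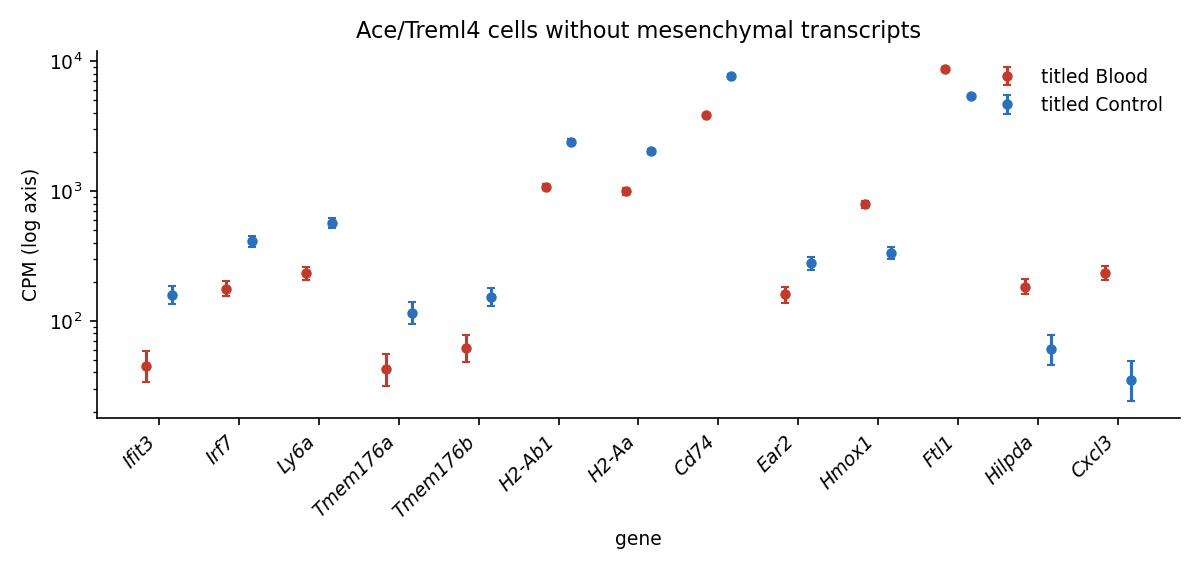
Levels (CPM, log axis) of 13 genes in core cells titled Blood and titled Control, with exact 95% counting intervals. The interferon-stimulated, Tmem176 and MHC class II genes and Ear2 lie lower titled Blood, and Hmox1, Ftl1, Hilpda and Cxcl3 lie higher, Hmox1 with 35.5% of its UMIs titled Blood in 1 cell.

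The genes that define the non-classical state were somewhat lower titled Blood. The list of 26 summed to 8804 CPM titled Blood and 10535 CPM titled Control, a ratio of 0.836 (0.813 to 0.859), and 1 of 23 genes tested passed the 2-fold limit. The list's median log2 ratio was -0.20. Ear2 had 191 UMIs in 74 cells titled Blood and 271 UMIs in 71 cells titled Control. Its level was 159 CPM (138 to 184) titled Blood, against 277 CPM (245 to 312) titled Control, which gave a ratio of 0.575 (0.475 to 0.694). Adgre4 had 106 and 161 CPM, and Nr4a1 603 and 782 CPM. Spn, at 171 and 198 CPM, and Pglyrp1, at 178 and 168 CPM, had ratios whose intervals included 1. The classical cells, at 4655 and 5044 CPM of the list, had a ratio of 0.923. The 1 gene past that limit was Cd36, a scavenger receptor, which was higher at 118 and 40.9 CPM, with 25.5% of its UMIs titled Blood in 1 cell.

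Several of the genes highest titled Blood had most of their UMIs in a few cells. The calgranulins S100a8 and S100a9, calcium-binding proteins that abound in neutrophils, had 293 and 266 UMIs titled Blood and 8 and 0 titled Control. T cells had an S100a8 UMI in 8.54% of cells titled Blood and 1.22% titled Control, against 15.4% and 3.52% of core cells. Against the level of 3 counts in the library titled Control, S100a9 was at least 72.3-fold higher titled Blood. The 9 neutrophil-transcript cells titled Blood carried most of them, and without these and the 3 such cells titled Control S100a8 had 29 and 8 UMIs and S100a9 15 and 0. The neutrophil list had a median log2 ratio of 0.55 in core cells, with 2 of 9 genes at least 2-fold higher, and of 0.14 without those cells, with 0 of 7.

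Ccl17, a chemokine of dendritic cells and alternatively activated macrophages, had 120 UMIs titled Blood and 0 titled Control, and 119 of them lay in 1 cell, the deepest of the core. Mmp12, the macrophage elastase, had 382 and 67.6 CPM, and without the cell with most of its UMIs in each library 137 and 38.6 CPM. Pf4, a chemokine of platelets and macrophages, had 506 and 78.8 CPM, and 329 and 29.2 CPM without its top cell. It had a UMI in 29.0% of core cells titled Blood and 19.0% titled Control, against 24.4% and 16.6% of T cells, so the shares lay within counting error of that background. The platelet gene Ppbp had 4 UMIs titled Blood and 0 titled Control, and Itga2b 0 and 2. Cxcl3, a neutrophil-attracting chemokine, had 281 UMIs in 25 cells titled Blood and 34 UMIs in 4 cells titled Control, a ratio of 6.74 (4.71 to 9.93). Without the neutrophil-transcript cells 122 UMIs were left titled Blood and 8 titled Control, a ratio of 12.9 (6.33 to 30.5). T cells, however, had a Cxcl3 UMI in 10.8% of cells titled Blood and 1.48% titled Control, against 14.8% and 2.82% of core cells, so these shares lay within counting error of the background. Classical cells had 398 and 68.6 CPM of Cxcl3, a ratio of 5.80.

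Genes of haem, iron and oxidative stress were followed because of the study's subject. Hmox1, the inducible haem oxygenase, had 943 UMIs titled Blood and 327 titled Control. The level was 787 CPM (738 to 839) titled Blood, against 335 CPM (299 to 373) titled Control, which gave 2.35 (2.07 to 2.68) as their ratio. The share of cells with a UMI was almost equal, 58 of 169 (34.3%) titled Blood and 50 of 142 (35.2%) titled Control, against 8.67% and 8.46% of T cells. The mean of each cell's own level was 484 CPM titled Blood and 405 CPM titled Control. Part of the summed difference lay in 1 deep cell titled Blood, of 20329 UMIs, which held 335 of the 943 UMIs. Without the top cell of each library the levels were still 516 and 265 CPM. Ftl1, the ferritin light chain, had 8778 and 5362 CPM, and Fth1, the heavy chain, 11117 and 9272 CPM. The medians over cells lay closer for Ftl1, at 4625 CPM titled Blood and 4405 CPM titled Control. For Fth1 they were 7443 and 6154 CPM. Titled Blood, 1 cell held 15.2% of the Ftl1 UMIs. Of 9 haem and iron genes tested, Hmox1 alone passed the 2-fold limit, and the list's median log2 ratio was 0.17. Without the neutrophil-transcript cells Hmox1 had 528 CPM titled Blood and 302 CPM titled Control, a ratio of 1.75 (1.52 to 2.02), and 0 of the 9 passed.

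A second deep cell titled Blood, of 27003 UMIs, was the top cell for Gclm, Ptgr1, Mt1, Cd36 and Ftl1. Gclm, the modifier subunit of the enzyme that limits glutathione synthesis, had 114 CPM titled Blood and 30.7 CPM titled Control, and 59.8 and 25.7 CPM without the top cells. Ptgr1, a prostaglandin reductase, had 139 and 26.6 CPM, and 67.5 and 20.5 CPM without them. Mt1, a metallothionein, had 392 and 143 CPM, and 243 and 119 CPM without them. The 16 NRF2 target genes tested had a median log2 ratio of 0.22, with 2 higher and 0 lower by 2-fold or more, and 1 of 15 higher without the neutrophil-transcript cells. Of 17 genes of hypoxia and glycolysis, 2 were higher by 2-fold or more, the median being 0.32, and Hilpda, a lipid droplet protein induced by low oxygen, had 184 and 60.4 CPM. Without the neutrophil-transcript cells 0 of these 17 passed, and Hilpda had 100.1 CPM titled Blood and 60.3 CPM titled Control, a ratio of 1.66 (1.20 to 2.32). Spp1, osteopontin, had 215 and 46.1 CPM, but over all chosen cells 1465 CPM titled Blood and 2028 CPM titled Control.

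Several functional lists had summed levels close to equal. The adhesion and crawling list had a ratio of summed levels of 0.963 (0.933 to 0.995), Fc receptor signalling 0.922 (0.894 to 0.952), survival and apoptosis 0.995 (0.952 to 1.04) and lysosome genes 0.999 (0.975 to 1.02), titled Blood over titled Control. MHC class I genes had a ratio of 0.882 (0.861 to 0.903), with 0 of 15 genes at least 2-fold lower. Inflammatory cytokine genes had a ratio of 1.05, with Il1b at 2958 and 3557 CPM and Cxcl2 at 1248 and 878 CPM. Without the neutrophil-transcript cells that list ratio was 0.975 (0.949 to 1.003). Cxcl2 then had 647 CPM titled Blood and 734 CPM titled Control, a ratio of 0.881 (0.794 to 0.978). The 22 cell cycle genes, of which 3 were tested and 0 passed the 2-fold limit, summed to 936 CPM titled Blood and 657 CPM titled Control, a ratio of 1.42 (1.29 to 1.57), and single cells titled Blood held 75% of the Top2a and 94.7% of the Mki67 UMIs. The 8 platelet genes summed to 518 and 83.9 CPM, nearly all of it Pf4. Haemoglobin and other erythroid genes had 1 UMI in the core cells titled Blood and 1 titled Control. Over all chosen cells they summed to 13.8 CPM titled Blood and 0.555 CPM titled Control, a ratio of 24.8 (4.08 to 1018). Titled Blood, nearly all of these UMIs lay in the cells with mesenchymal transcripts, so that ratio does not describe the core cells.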

How the data were processed

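The authors deposited unnormalized UMI counts, 1 matrix per library, and the submitters' processing notes name Cell Ranger 3.1.0 and mm10. Kept cells had at least 300.0 genes and 500.0 UMIs, with a mitochondrial share of at most 20%. The chosen cells, gene lists and comparisons were selected with earlier results of these data known. Doublets were called with Scrublet (scanpy 1.11.5) and kept. It marked 2.38% and 1.80% of kept cells titled Blood and titled Control against expected 9.65% and 7.58%, so doublets remain.

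CPM came from the counts summed over the cells of a class in 1 library. The comparison classes had under 2 UMIs of Ace and Treml4. Classical cells also met the other limits of the rule and held at least 2 Ly6c2 UMIs and 1 of Csf1r, with 0 of Siglech, Ncr1 and Klrb1c. C1q-high cells met the rule's other limits but held at least 0.15% C1q UMIs, and T cells had at least 3 Cd3 UMIs and less C1q than that. Ratios used log2(CPM + 10) for genes with at least 50 CPM in either class and 30 UMIs over both. Intervals were exact Poisson, Clopper-Pearson and conditional binomial. No p-value was made. Genes were named by a fixed rule, the 12 highest and 12 lowest between libraries, the 12 highest and 8 lowest against classical cells, with at least 100 CPM and 40 UMIs, and up to 4 per list by UMIs; 1 of these genes is not reported here. Counting was tested on simulated data. Positions are from GENCODE (GRCm38).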

Additional observations from a re-analysis of the deposited data

How the results depend on the processing

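The share ratio of 0.854 stayed within its counting interval under each of 14 other settings, but at a C1q limit of 0.5% the ratio of 0.786 had an interval that excluded 1 (0.638 to 0.967). Over all chosen cells, 19 genes were at least 2-fold higher and 17 at least 2-fold lower titled Blood. With at least 3 Ace and Treml4 UMIs the counts were 31 and 42, with at least 1 Treml4 UMI 32 and 51, with a CPM minimum of 200 3 and 4, with no minimum 41 and 40, and with a pseudocount of 50 CPM 7 and 5. The count higher was 11 without cells with mesenchymal or neutrophil transcripts and 12 when each cell's own CPM was averaged. The count lower was 31 without shared barcodes, 33 after thinning to 3000 UMIs and 29 with a pseudocount of 1 CPM. The interferon-stimulated ratio of 0.821 was 0.885 with at least 3 Ace and Treml4 UMIs, 0.848 with Treml4, 0.782 without mesenchymal transcripts, 0.791 without both kinds, 0.710 after thinning and 0.794 from cell means.

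Single named genes turned their sign in 23 cases, against 414 that moved by less than the counting interval and 211 that moved by more, and the cause was not tested. Log2 ratios turned without cells with mesenchymal transcripts to 0.15 for Fabp4, 0.12 for Tcim, 0.50 for Dnajb1, 2.002 for Spp1 and 1.39 for Mt1. Without both kinds they were 0.18, 0.12, 0.44, 2.62 and 1.41 in the same order. After thinning they were 0.95 for Fabp4, 0.49 for Tcim, 0.57 for Dnajb1, 1.11 for Spp1, 0.040 for Mt1, 1.03 for Ccl8 and -0.051 for Ptgr1. With Treml4 Fabp4 was at 0.27 and Mt1 at 0.088, without shared barcodes Spp1 at 0.15 and Mt1 at 0.23, from cell means Mt1 at 0.41, and without dendritic cell genes Ccl17 at -0.082. The divisions by mesenchymal, neutrophil and Treml4 transcripts and by shared barcodes were chosen after seeing the data. No paired analysis was possible because there was 1 library per group and the labels carry no replicate numbers. Few UMIs per cell limit the choice of cells, since 2 molecules suffice.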
